A study of Rattus norvegicus with 4 samples.

Results

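STAT proteins are transcription factors that wait in the cytoplasm, are phosphorylated by Janus kinases at activated cytokine receptors and then enter the nucleus to bind DNA. PIAS proteins, named as protein inhibitors of activated STAT, bind STATs and other transcription factors in the nucleus and also act as ligases that attach the small protein SUMO. IL-22 signals mainly through STAT3, which in glia is known for its part in responses to injury and cytokines. Described here are 5 genes of the STAT family (Stat2, Stat3, Stat5a, Stat5b and Stat6) and 4 PIAS genes (Pias1, Pias2, Pias3 and Pias4), taken by symbol from the deposited gene table. They are 9 of its 17778 rows, and each symbol has a single row. All 9 had a mean of at least 1 FPKM (fragments per kilobase of transcript, scaled to the mapped fragments of the library) and were among the 9485 rows tested.

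All libraries came from generation 4 of RSC96, an established Schwann cell line from rat, Schwann cells being the glia that wrap peripheral axons. Both groups were kept overnight in medium lacking serum. The 2 IL-22 libraries come from cells given 100 ng/ml recombinant rat IL-22 for 48 h, and the 2 control libraries from cells given only the solvent (0.1% bovine serum albumin), with no duration in the labels. The labels do not say that the libraries of a group are separate cultures, so p-values reflect only how far these libraries varied, and that variation may be technical. Values are FPKM, and a difference is the IL-22 mean less the control mean of log2(FPKM + 1), with its limma standard error and a Benjamini-Hochberg adjusted p over all tested rows.

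Relative to control library 1, sequencing depth estimated from the steps between low values was 1.28 in control library 2 and 1.08 in both IL-22 libraries. Each is only the commonest ratio of low rows, held by 40.7% of them in control library 2. It was held by 42.6% in IL-22 library 1 and 22.0% in IL-22 library 2. Of 13 Schwann cell markers with a row, 8 were under 1 FPKM in every library, and Sox10, S100b and Ngfr did not exceed 0.119 FPKM. That marker list summed to 45.7 and 48.6 FPKM in controls and 82.2 and 89.1 after treatment, and its part in the results was not tested. Most of the sum was Pmp22 (means of 19.2 and 41.6 FPKM) and Ncam1 (24.4 and 36.2 FPKM), both called higher, while Gfap (1.68 and 0.653 FPKM) was called lower. Egr2 (0.460 and 5.11 FPKM) and Erbb3 (0.752 and 1.57 FPKM) were also called higher. Both reached a mean of 1 FPKM only through the IL-22 libraries, and Gfap only through the controls. That made 4 of 5 tested markers higher and 1 lower, where 27.6% and 30.8% of all tested rows were. Of 10 macrophage and leukocyte markers 8 were under 1 FPKM in every library, with sums from 3.93 to 6.48, and Aif1 and Emr1 were listed at 0 throughout. Of 5 endothelial markers 4 were under 1 FPKM in every library, with sums from 1.15 to 1.90. The sums of the fibroblast list ran from 406 to 427, with Dcn and Lum listed at 0. Most of that was Thy1 (means of 212 and 242 FPKM) and Col1a2 (172 and 146 FPKM). Of its 5 tested markers 3 were called higher and 2 lower, where 27.6% and 30.8% of all tested rows were. In bulk RNA, fewer cells of a type and less RNA per cell cannot be told apart.

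Of the STAT genes 4 were higher with IL-22 and the remaining one, Stat6, was lower. Of the PIAS genes Pias3 was lower and the other 3 did not pass the test. That made 4 of 9 genes higher and 2 lower, where 27.6% of all tested rows were higher and 30.8% lower. In either direction 6 of 9 were called, against 58.4% of all tested rows, a share near the background. The groups did not overlap in 7 of the 9 genes, where 80.1% of all tested rows did not overlap. The median difference of the 9 genes was -0.04 and that of all tested rows -0.02, and neither kept its sign under every alternative. The median of the 9 genes was 0.15 without control library 2, -0.00015 without IL-22 library 1 and 0.023 after quantile normalization. That of all rows was 0.014 without the filter on low values.

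**Figure D1:**
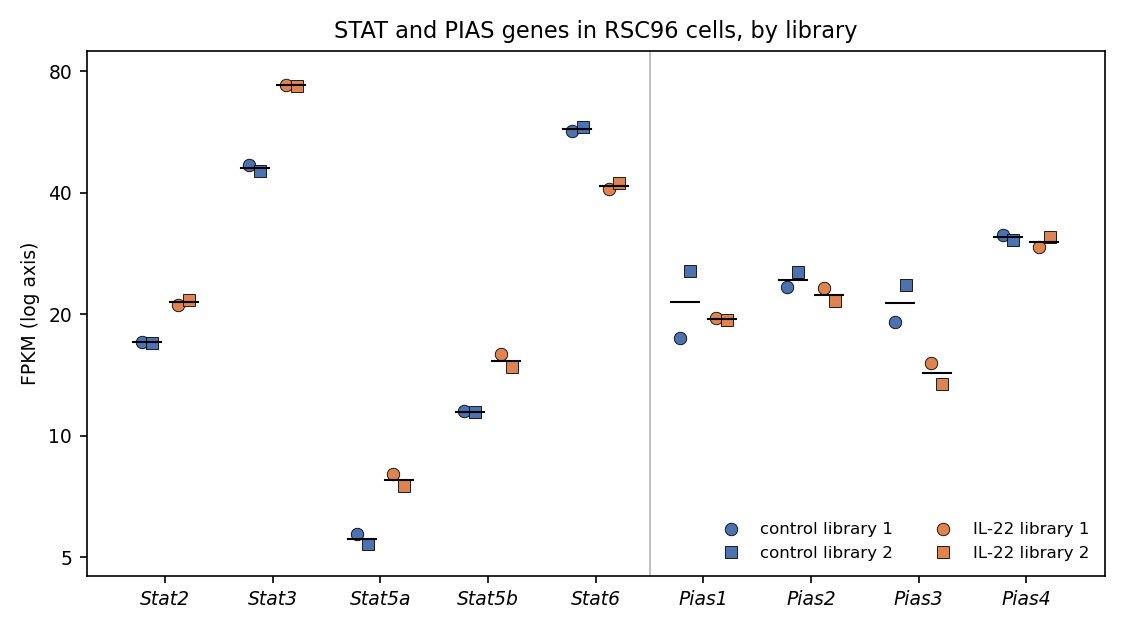
FPKM on a log axis of each STAT and PIAS gene in the 2 control libraries (blue) and the 2 IL-22 libraries (orange), with circles for library 1, squares for library 2 and bars for group means. Stat3 moves from 46.8 and 45.3 FPKM to 73.8 FPKM in both IL-22 libraries, passing Stat6, while Pias1 is split between its control libraries.

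Stat3 encodes the main STAT of IL-22 and of gp130 cytokines such as IL-6. It measured 46.8 and 45.3 FPKM in controls and 73.8 FPKM in both IL-22 libraries. Both IL-22 libraries lay above both controls, and the fold of means was 1.60. The difference was 0.67 ± 0.07 (limma adjusted p = 3.95e-05), the largest in size among the 9 genes, and 19.0% of all tested rows differed by more in either direction.

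Stat5a and Stat5b encode the closely related STATs of prolactin, growth hormone and several haematopoietic cytokines. Stat5a measured 5.71 and 5.38 FPKM in controls and 8.05 and 7.49 FPKM with IL-22, a 1.40-fold rise (0.42 ± 0.11, limma adjusted p = 0.00856). Stat5b measured 11.5 FPKM in both controls and 15.9 and 14.8 FPKM with IL-22, a 1.34-fold rise (0.39 ± 0.09, limma adjusted p = 0.00515). The groups of either gene did not overlap. Stat5a no longer passed once IL-22 library 1 was left out (limma adjusted p = 0.0538, the highest of 14 alternatives, the lowest being 0.0044). Stat5b stood at 2.01 and 2.13 times the FPKM of Stat5a in controls and at 1.98 and 1.97 times with IL-22. The coding sequences of the pair are near-identical over long stretches, so reads may have been split between them or assigned to either.

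Stat2 encodes the STAT that joins IRF9 in the complex activated by type I and type III interferons. It measured 17.1 and 17.0 FPKM in controls and 21.1 and 21.8 FPKM with IL-22, with no overlap and a 1.26-fold rise. The difference was 0.32 ± 0.08 (limma adjusted p = 0.00813), a size that 50.4% of all tested rows exceeded in one direction or the other. Its call was lost without IL-22 library 2 (limma adjusted p = 0.0566, the highest of 14 alternatives, the lowest being 0.00451).

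Stat6, which encodes the STAT of IL-4 and IL-13, went the other way. It measured 57.0 and 58.4 FPKM in controls and 40.8 and 42.4 FPKM with IL-22, 1.39-fold higher in controls. Both IL-22 libraries lay below both controls, with a difference of -0.46 ± 0.07 (limma adjusted p = 0.000418).

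Pias3 encodes the PIAS protein best known for blocking the DNA binding of STAT3. It measured 19.1 and 23.6 FPKM in controls and 15.2 and 13.4 FPKM with IL-22, 1.495-fold higher in controls. The groups did not overlap, but the controls lay further apart than in 90.01% of all tested rows. The difference was -0.54 ± 0.11 (limma adjusted p = 0.00287). Without control library 2, the higher of the controls, it was -0.40 (limma adjusted p = 0.0392), and over 14 alternatives the adjusted p ran from 2.85e-05 to 0.0392.

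Pias1, whose product restrains interferon-activated STATs and NF-kappaB, measured 17.4 and 25.5 FPKM in controls and 19.6 and 19.4 FPKM with IL-22. The IL-22 libraries sat between the controls, whose gap was wider than that of 98.3% of all tested rows. The difference was -0.11 ± 0.15 (limma adjusted p = 0.536), and its sign depended on the control library used. It was -0.37 without control library 1 (limma adjusted p = 0.0201) and 0.15 without control library 2 (limma adjusted p = 0.173), with an adjusted p from 0.0201 to 0.734 over 14 alternatives.

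Pias2, a coregulator of the androgen receptor among other factors, measured 23.4 and 25.4 FPKM in controls and 23.2 and 21.6 FPKM with IL-22 (-0.12 ± 0.08, limma adjusted p = 0.253). The difference of Pias2 was -0.18 without control library 1 and -0.061 without control library 2. It was -0.19 with libraries scaled to 1 common sum, the lowest of 14 alternatives. Its groups did not overlap, but were separated by less than the gap within either group. Pias4, whose product takes part in SUMO conjugation at sites of DNA damage, measured 31.4 and 30.6 FPKM in controls and 29.3 and 31.0 FPKM with IL-22, and the groups overlapped. Its difference was -0.04 ± 0.07 (limma adjusted p = 0.669), and 0.023 with quantile normalization. It was -0.00015 without IL-22 library 1 and -0.079 without IL-22 library 2.

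**Figure D2:**
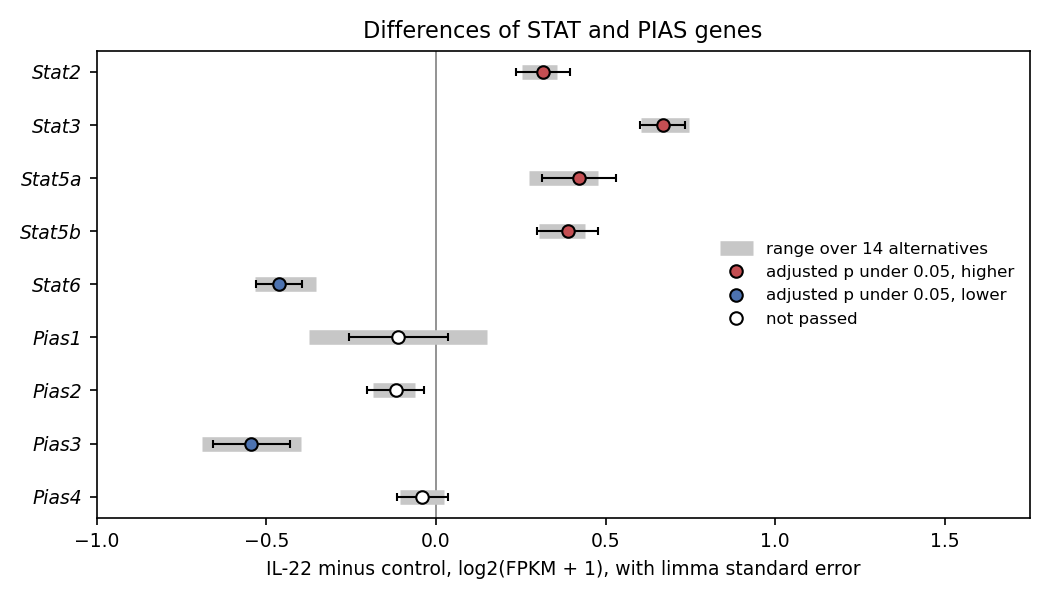
Difference of each gene in log2(FPKM + 1), positive where IL-22 was higher, with points for the limma estimate, bars for its standard error and grey bands for the range over 14 alternative settings. Stat3 is highest at 0.67 and Pias3 lowest at -0.54, and the bands of Pias1 and Pias4 cross 0.

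FPKM is scaled by length, so levels of different genes can be set side by side. In controls the order of mean FPKM was Stat6 (57.7 ± 1.01, SD, n = 2), Stat3 (46.1 ± 1.07), Pias4 (31.0 ± 0.575), Pias2 (24.4 ± 1.43), Pias1 (21.5 ± 5.72), Pias3 (21.4 ± 3.19), Stat2 (17.0 ± 0.0742), Stat5b (11.5 ± 0.0301) and Stat5a (5.55 ± 0.235). Pias2, Pias1 and Pias3 overlapped one another in that order, and the other neighbours did not. With IL-22 it was Stat3 (73.8 ± 0.0422), Stat6 (41.6 ± 1.11), Pias4 (30.2 ± 1.21), Pias2 (22.4 ± 1.15), Stat2 (21.4 ± 0.429), Pias1 (19.5 ± 0.130), Stat5b (15.3 ± 0.820), Pias3 (14.3 ± 1.21) and Stat5a (7.77 ± 0.393). There Pias2 overlapped Stat2 and Stat5b overlapped Pias3. Stat3 and Stat6 therefore changed places at the top, Pias3 moved below Stat5b, and Stat5a was the lowest of the 9 in both groups.

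Together the 5 STAT genes summed to an FPKM of 138.1 and 137.6 in controls and 159.8 and 160.2 after treatment. Stat3 made up 33.9% and 33.0% of that sum in controls and 46.2% and 46.1% with IL-22. Stat6 went from 41.2% and 42.5% to 25.5% and 26.5%. The ratio of Stat3 to Stat6 was accordingly 0.822 and 0.776 in controls and 1.81 and 1.74 with IL-22. The other 3 STAT genes held smaller shares, each somewhat larger with IL-22 and with no overlap. Stat2 held 12.4% and 12.3% in controls and 13.2% and 13.6% with IL-22.

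Together the 4 PIAS genes summed to an FPKM of 91.4 and 105.2 in controls and 87.3 and 85.4 with IL-22. The difference of means was -11.9 FPKM, and -5.04 FPKM without control library 2. Pias3 fell from 20.9% and 22.5% of the PIAS sum to 17.4% and 15.7%, and the shares of Pias1, Pias2 and Pias4 overlapped between groups. The ratio of Stat3 to Pias3 was 2.45 and 1.92 in controls and 4.87 and 5.49 with IL-22. With 2 libraries against 2, a two-sided exact permutation test cannot go below p = 0.33, the value that each of these sums, the ratios of Stat3 and the shares of the STAT genes and of Pias3 gave.

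**Figure D3:**
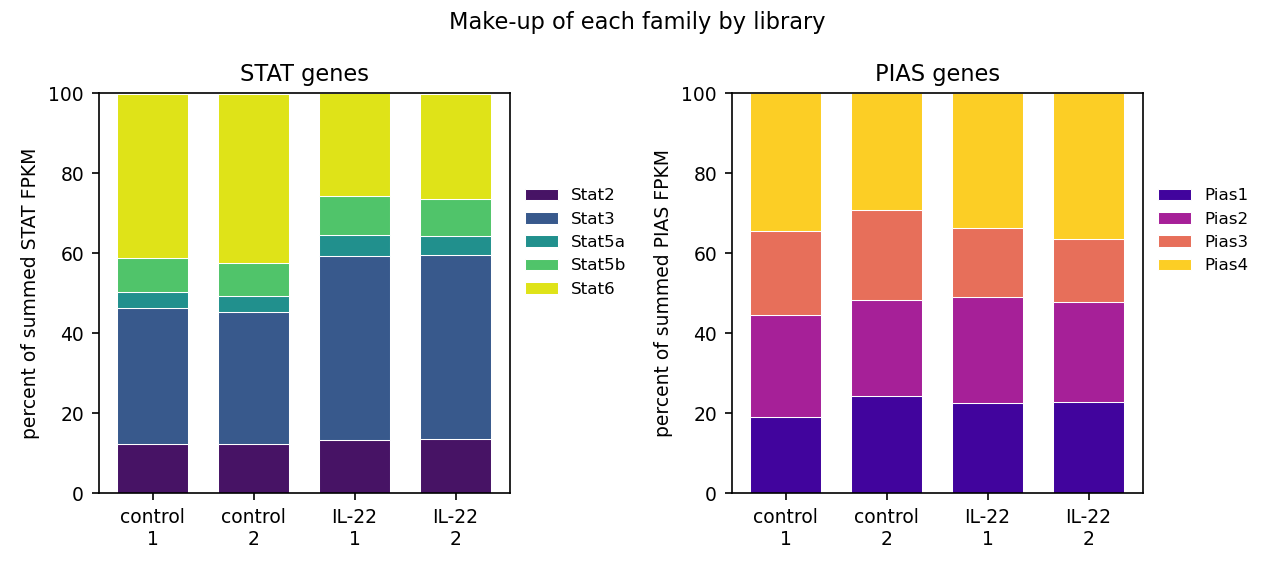
Percent of the summed FPKM of the STAT genes (left) and of the PIAS genes (right) held by each gene, with 1 stacked bar per library. The Stat3 block grows from 33.9% and 33.0% in controls to 46.2% and 46.1% with IL-22 as the Stat6 block shrinks, while the PIAS bars differ mainly in Pias3 and between the controls.

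Stat5b, Stat5a and Stat3, all higher with IL-22, are 3 consecutive protein-coding genes of rat chromosome 10 in the RefSeq order of the assembly GRCr8. The 5 protein-coding genes on each side were read after the values had been seen. Of these 10 neighbours 8 had a row under their RefSeq symbol, and rows under earlier symbols were not searched for. Of those 8, 5 were tested, of which 3 were higher and 2 did not pass. Of all tested rows 27.6% were higher and 30.8% lower. Ghdc, next to Stat5b, measured 8.47 and 8.10 FPKM in controls and 13.2 and 12.8 FPKM with IL-22 (0.59, limma adjusted p = 0.000637). On the Stat3 side Atp6v0a1, a subunit gene of the proton pump of lysosomes, was higher by 0.99 (limma adjusted p = 1.27e-05) and the coenzyme A synthesis gene Coasy by 0.50 (limma adjusted p = 0.00263). Rab5c (0.12) and Hspb9 (-0.13) did not pass.

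The 250 bases before the RefSeq start site (GRCr8) were matched for all 9 genes. The windows of the 3 neighbours are shown because all 3 rose, and that of Stat6 because it fell. Each runs 5′ to 3′ on the strand of the gene, and capitals mark the CCAAT box (CCAAT, or ATTGG on the other strand) and the GC box (GGGCGG, or CCGCCC on the other strand).
Stat3 (chr10:86363360-86363609, minus strand): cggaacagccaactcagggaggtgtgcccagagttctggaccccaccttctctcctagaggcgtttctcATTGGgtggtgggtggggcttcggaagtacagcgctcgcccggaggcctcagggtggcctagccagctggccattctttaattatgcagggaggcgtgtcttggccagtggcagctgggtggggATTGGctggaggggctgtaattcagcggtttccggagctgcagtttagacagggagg
Stat5a (chr10:86285609-86285858, plus strand): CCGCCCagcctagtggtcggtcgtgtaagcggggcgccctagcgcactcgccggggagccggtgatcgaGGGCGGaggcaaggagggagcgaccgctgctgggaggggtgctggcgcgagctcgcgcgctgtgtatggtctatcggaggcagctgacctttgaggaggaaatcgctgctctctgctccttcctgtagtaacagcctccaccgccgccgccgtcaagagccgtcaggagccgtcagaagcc
Stat5b (chr10:86275953-86276202, minus strand): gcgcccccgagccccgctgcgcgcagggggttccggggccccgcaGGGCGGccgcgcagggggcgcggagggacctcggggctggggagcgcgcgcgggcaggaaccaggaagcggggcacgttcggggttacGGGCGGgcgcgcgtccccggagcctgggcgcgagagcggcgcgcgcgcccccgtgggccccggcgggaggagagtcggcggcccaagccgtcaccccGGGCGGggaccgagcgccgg
Stat6 (chr7:65365255-65365504, plus strand): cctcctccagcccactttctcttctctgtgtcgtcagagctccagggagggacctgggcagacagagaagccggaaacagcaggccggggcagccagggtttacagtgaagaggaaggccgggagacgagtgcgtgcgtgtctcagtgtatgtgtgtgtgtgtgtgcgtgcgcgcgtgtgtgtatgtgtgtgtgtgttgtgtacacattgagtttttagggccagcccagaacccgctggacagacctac

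The windows differ in kind. The Stat3 window holds CCAAT boxes starting 181 and 57 bases before the start site and no GC box. The window of Stat5b has 3 GC boxes and that of Stat5a 2, with no CCAAT box, and that of Stat6 has neither but carries a long run of alternating T and G. Stat5b was the richest of the 9 in G and C, at 84.0% (above 99.6% of the 7656 windows matched to tested genes), and Stat6 the poorest at 58.4%, where the median of those windows was 60.8%. Stat3 had 9 CpG dinucleotides, Stat6 12, Stat5a 26 and Stat5b 44, against a median of 17.

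In all, 8 words were searched on both strands. The palindrome bound by most STATs (TTCNNNGAA), the wider form favoured by STAT6 (TTC and GAA with 4 bases between) and an interferon response core (GAAA and GAAA with 2 bases between) were in none of the 9 windows. They occur in 5.64%, 4.26% and 2.52% of the windows of tested genes and in 7.67%, 6.25% and 3.41% of all 33469 windows. The E-box CACGTG (8.88% of windows of tested genes, 5.59% of all) and the TATA box TATAAA (5.81% and 12.93%) were not found either. The GC box was in 7 of 9 windows (62.0% and 30.47%), all but those of Stat3 and Stat6. The CCAAT box was in 3, those of Stat2, Stat3 and Pias4 (36.43% and 34.02%). The CRE core TGACG was in 4, those of Stat2, Stat5a, Stat5b and Stat6 (30.73% and 18.22%). A match describes letters only, and these words were not tested for binding.

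Genes around the STATs were read from 9 lists, chosen with earlier results of these data known, some of which share genes. Of the IL-22, IL-10 and gp130 receptors and Janus kinases, 10 of 15 were tested and 5 were higher and 2 lower (median difference 0.20). Over all tested rows 27.6% were higher and 30.8% lower, with a median of -0.02. Jak2, a kinase of many cytokine receptors, measured 7.45 and 6.29 FPKM in controls and 11.8 and 10.3 FPKM with IL-22 (0.61 ± 0.12, limma adjusted p = 0.00178). Il20rb, a receptor chain for IL-20-type cytokines, fell from 11.3 and 9.76 FPKM to 6.34 and 6.82 FPKM (-0.60). The oncostatin M receptor gene Osmr rose by 0.51, but failed the test after quantile normalization or when IL-22 library 1 was dropped (limma adjusted p between 0.0026 and 0.083 over 13 alternatives). When 1 IL-22 library was left out, whichever it was, fewer members of the list were called higher, and so were fewer of all tested rows. Il22ra1, the specific chain of the IL-22 receptor, was listed at 0 in every library, and Il10rb, the shared chain, measured 7.53 and 8.39 FPKM in controls and 9.18 and 8.48 FPKM with IL-22 (limma adjusted p = 0.301).

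Among receptors of cytokines that act through STAT5 and STAT6, 6 of 18 with a row were tested, 4 were higher and 0 lower by limma (also 0 lower at an unadjusted p under 0.05), with a median of 0.46, against 27.6% of all tested rows higher and 30.8% lower. Il4r, the IL-4 receptor chain upstream of Stat6, measured 11.1 and 11.6 FPKM in controls and 17.1 and 18.0 FPKM with IL-22 (0.58 ± 0.09, limma adjusted p = 0.000471), opposite in direction to Stat6 itself. Il3ra rose by 0.85, and the growth hormone receptor gene Ghr by 0.84. The controls of Ghr (2.75 and 4.46 FPKM) lay further apart than in 98.5% of all tested rows. The difference of Ghr was 0.57 without control library 1 and 1.12 without control library 2. Il2rg, Csf2rb, Prlr and Il13ra2, picked after their values were seen, were listed at 0 throughout.

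SOCS proteins and phosphatases that limit STAT signalling gave 6 higher and 3 lower of 13 tested (median 0.26), beside 27.6% higher and 30.8% lower among all tested rows. Socs3, a feedback inhibitor of gp130 receptors and a STAT3 target, was higher by 1.65 and Usp18, which restrains interferon receptor signalling beside STAT2, by 0.88. Socs1 fell from 7.03 and 7.47 FPKM to 3.43 and 3.55 FPKM (-0.88 ± 0.11, limma adjusted p = 0.000196). Of the partners and coactivators of STATs 7 of 13 were lower and 0 higher by limma (also 0 at an unadjusted p under 0.05, and 1 without control library 2), with a median of -0.28, where 30.8% of all tested rows were lower and 27.6% higher. Nmi, which binds STATs and enhances their activity, fell from 21.4 and 19.4 FPKM to 10.0 and 9.40 FPKM (-0.999 ± 0.09, limma adjusted p = 2.74e-05). The nuclear import genes Kpnb1 (-0.77) and Ran (-0.57) fell too.

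PIAS proteins act as SUMO ligases, and 10 genes of the SUMO list were, like Pias3, lower with IL-22. Of all tested rows 30.8% were lower and 27.6% higher by limma, or 3143 and 2813 of 9485 at an unadjusted p under 0.05. Of 20 tested members of the list 10 were lower and 0 higher by limma (11 and 0 at an unadjusted p under 0.05), with a median of -0.29. With quantile normalization, with the replicate number as a block and without control library 2 there was 1 higher. Trim28, a corepressor with SUMO ligase activity, fell from 273 and 244 FPKM to 120.3 and 123 FPKM (-1.08 ± 0.07, limma adjusted p = 3.73e-06). Sae1, a subunit of the SUMO-activating enzyme, fell by 0.64 and the SUMO protease gene Senp3 by 0.63. Uba2 (-0.58), the partner of Sae1, named after its values were seen, was lower as well.

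STAT3 target genes gave 17 higher and 3 lower of 23 tested (median 0.68), against shares of 27.6% and 30.8% among all tested rows. Of the 17, Mmp9, named after its values were seen, passed the filter on low values only through the IL-22 libraries, where it was high (control mean 0.371 FPKM). The transcription factor gene Cebpd (3.02), the NF-kappaB cofactor gene Bcl3 (2.79) and Ier3 (2.76) led them. All 3 differences exceeded that of Stat3 itself (0.67), and Twist1 (-0.44), Birc5 (-0.46) and Ccnd1 (-0.58) were lower, and were picked for mention once their values had been seen. Of 8 tested STAT5 target genes 5 were higher and 3 lower (median 0.38), to be read against the same 27.6% and 30.8%. These counts take no account of whether a STAT raises or lowers a target. Bcl6 rose by 1.59, from 3.47 and 5.53 FPKM in controls to 14.4 and 16.2 FPKM with IL-22. Its controls lay further apart than in 98.6% of all tested rows. The kinase gene Pim1 rose by 1.55. Id1, an inhibitor of differentiation factors, fell from 183 and 151 FPKM to 50.6 and 58.0 FPKM (-1.60 ± 0.10, limma adjusted p = 3e-06). Pim1, Bcl2l1 and Ccnd1 stand in both lists.

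STAT6 target genes were mostly too low to test, with 11 of 17 under the minimum. Of the 6 tested 3 were higher and 1 lower, where 27.6% and 30.8% of all tested rows were (median 0.39, or 0.17 without IL-22 library 2 and 0.24 without IL-22 library 1). Tgm2 was higher by 1.10, from 0.221 and 0.373 FPKM to 1.80 and 1.76 FPKM, and so passed the filter on low values only through the IL-22 libraries. It was not tested without either of them, when 2 genes of the list were higher. Gata3 was higher by 0.86, while Socs1 is the lower member. Without the filter on low values, where only the 6 members at 0 in every library went untested, 5 were higher. Members near 0 FPKM were thereby taken in, and over all rows 2528 of 12482 were higher in that fit. Interferon receptors and STAT2-dependent interferon-stimulated genes gave 8 higher and 10 lower of 22, again beside 27.6% and 30.8% of all tested rows. Their median was -0.04, and 0.019 when low rows were kept. Rsad2 (2.24), Oasl (1.51) and Dhx58 (1.23) rose, and Irf9, the DNA-binding partner of STAT2, named after its values were seen, fell from 16.1 and 17.2 FPKM to 13.4 and 13.2 FPKM (-0.30, limma adjusted p = 0.0143). Stat2 and Irf9 thus moved in opposite directions, which was not tested as an interaction.

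**Figure D4:**
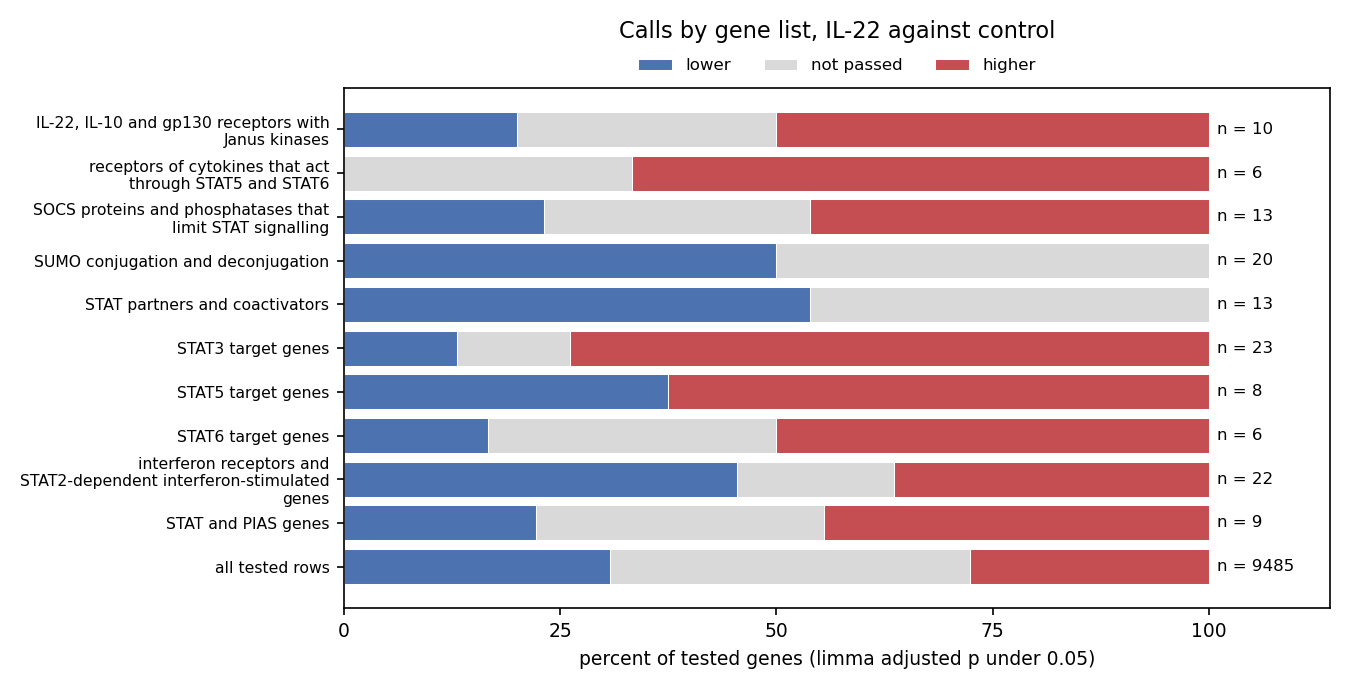
Percent of the tested genes of each list that were lower (blue), higher (red) or not past the limma threshold of 0.05 (grey), with the number tested at the right and all 9485 tested rows at the bottom. STAT3 targets are mostly red (17 of 23), while the SUMO list (10 of 20) and the STAT partners (7 of 13) hold blue and no red.

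Among the genes whose 4 centred log2 values lay nearest to those of Stat3 were Socs5 (Euclidean distance 0.0117), which limits cytokine signalling, and the activin receptor gene Acvr1b (0.0250). Socs5 measured 56.5 and 54.5 FPKM in controls and 89.3 and 88.2 FPKM with IL-22. Nearest to Pias3 were Hoxa2 (0.0386), Ccar1 (0.0518) and Nacc2 (0.0578). Like Pias3 all 3 were higher in control library 2 than in control library 1, with Ccar1 at 19.6 and 24.4 FPKM in controls and 15.1 and 14.2 FPKM with IL-22. These distances rest on 4 libraries and were chosen from all tested rows, so they are a description.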

How the data were processed

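Per the labels' protocols, poly(A) RNA of RSC96 cells was sequenced on Illumina equipment. FPKM per gene, with 1 column per library, is what the authors deposited. Per the submitters' processing notes the build was rn5 and the tools were TopHat2 and Cuffdiff. For annotation, strand and library scaling, details are not given here by the labels or files. FPKM keeps no absolute depth, so intervals for counting error could not be had. A table of lncRNAs, which carries no gene names, was not used.

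The test was limma 3.58.1 (R 4.3.3) on log2(FPKM + 1), over rows whose mean reached 1 FPKM (trended eBayes, two-sided, adjusted p under 0.05). A difference on that scale understates the change of low genes. The fit was tested on simulated data. Relative depth came from the commonest ratio of rows under 0.15 FPKM. Sequences and gene order came from RefSeq (GRCr8), read with Python 3.11.15 and pandas 2.3.3.

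The members and lists were chosen with earlier results of these data known. Beside the 9 genes and the receptor genes of IL-22, the text names up to 3 members past the threshold per list by absolute difference, and the 3 genes nearest in pattern to Stat3 and to Pias3. A few genes that these rules or lists hold are not reported here. Other names are said to have been picked after their values were seen. The alternatives changed the pseudocount, filter, scaling, variance model, block or libraries. Libraries with the same number did not deviate together.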

Additional observations from a re-analysis of the deposited data

How the results depend on the processing

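Of the 14 alternatives, those that kept all 4 libraries each gave 4 of the 9 genes higher and 2 lower. Over all rows the share in these ran from 2528 of 12482 (no filter) to 2755 of 9485 (replicate block) higher. The share lower ran from 2553 of 12482 (no filter) to 3397 of 9756 (scaling to a common sum). Stat3, Stat5b, Stat6 and Pias3 passed under all 14. A pseudocount of 5 lowered Stat5a to 0.28. Stat2 and Stat5a each lost their call without 1 IL-22 library, and Pias1 was called lower without control library 1 (-0.37). Reversed in sign were Pias1 (0.15) and with it the median of the 9 genes without control library 2, Pias4 and again that median with quantile normalization (0.023), and, without the filter on low values, the medians of the interferon list (0.019) and of all rows (0.014). None of these was a called value, and the cause was not tested. The rise in summed STAT FPKM of 22.2 became 22.8 with median-of-ratios size factors. With libraries scaled to 1 common sum the STAT difference read 23.3, and the PIAS difference, -11.9 unscaled, read -25.2. That scaling raised all values and so changed the unit of both sums. The 23.3 and -25.2 therefore cannot be set beside the unscaled differences as a larger or smaller change. Where 1 library was left out (the remaining one is then taken to be as variable as the other group), the PIAS difference ran from -18.9 to -5.04 and the STAT difference from 21.9 to 22.4.

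The correlation of deviations between libraries of the same number was -0.00197. No shared deviation was thus seen across the rows, but whether libraries of the same number shared a culture or preparation was not tested. With the replicate number as a block the 9 genes gave 4 higher and 2 lower as before, and all tested rows 2755 higher and 3070 lower against 2619 and 2918. Scaling to that common sum gave 2305 higher and 3397 lower over all rows. Without whole-read counts, how far depth limits the lowest gene, Stat5a, cannot be given.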
